A study of Mus musculus with 4 samples.

Results

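The genes described here encode the ligands, receptors, Smads and Id targets of transforming growth factor beta (TGF-beta) and bone morphogenetic protein (BMP) signalling. They were chosen by name, from the gene names in the array files that begin with Bmp, Gdf and a digit, Tgfb, Inhb, Acvr or Smad and a digit, or that are Id1 to Id4. The rule found 57 genes among 28632 names, carried by 90 of 41174 probes. A probe was tested if all 4 arrays had it well above background in the mutants, or all 4 had it so in the controls. That left 63 of these probes and 46 of these genes, among 18024 genes tested.

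RNA of whole cerebellum was compared between Dicer mutants (mGfap-Cre; Dicer flox/flox) and control littermates (mGfap-Cre; Dicer +/flox) at postnatal day 30, in 4 independent littermate pairs of mixed background. Both genotypes carried the mGfap-cre 73.12 transgene, in which a mouse Gfap promoter drives Cre recombinase. The mutants had 2 floxed alleles of Dicer, the enzyme that cuts microRNA precursors, and the controls had 1, so the controls were not wild type. Each pair shared 1 two-colour array, with 500 ng of RNA per channel and the mutant in Cy5 in pairs 1 and 3 and in Cy3 in pairs 2 and 4. The series title names astroglia as the cells that lose Dicer and concerns effects on neurons.

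TGF-beta family ligands are secreted dimers that bring together type I and type II serine/threonine kinase receptors. The activated type I receptor phosphorylates a receptor-regulated Smad: Smad2 and Smad3 for TGF-beta and activin, and Smad1, Smad5 and Smad9 for BMP. These join Smad4 and enter the nucleus, where the Id genes are classic targets of BMP signalling. In the cerebellum, BMP ligands act on granule neuron precursors, and TGF-beta and BMP signals act on astroglia.

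Probes well above background numbered 26397 to 28907 per array for mutants and 26289 to 27717 for controls. Precision is limited by having 4 arrays. All 7 markers listed for Purkinje neurons and all 7 for granule neurons were tested, with median log2 ratios of -0.02 and 0.03, and 1 of 7 markers of brainstem and midbrain was tested (Th). Dicer1 gave 0.04 ± 0.22 and -0.06 ± 0.18 by its 2 probes. Whether either probe lies within the floxed exons is unknown here, so they do not check the deletion. Ratios below are mutant over control littermate on the log2 scale, as mean ± SD over the 4 pairs. The SD holds any dye effect as well as the spread between animals, since the dyes were swapped between pairs. Intervals and p values come from a fit with a dye term. Adjusted p values are from limma over all 18024 genes, and genes under 0.05 count as called. With 1 pair left out, 1 dye order keeps a single pair. That pair counts as much as the other pairs together and adds nothing to the error. Adjusted p values of such fits are therefore less secure than those of all 4 pairs. Levels are normalized intensities on a linear scale, which allow a comparison between animals for 1 probe and not between probes.

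Of the 46 tested genes, Tgfbr1, a type I receptor of TGF-beta, was called higher in mutant cerebellum and none was called lower by limma. Over all genes, 1.03% were called, 0.588% higher and 0.444% lower. At an unadjusted p under 0.05, 9 of the pathway genes lay above their littermates' level and 1 lay below it (Id4), which is 21.7% of those tested, against 9.39% of all genes. Mutant and control levels did not overlap for 6 genes (Tgfbr1, Tgfb3, Gdf10, Bmp2k, Bmp3 and Id4), against 4.01% of all genes. All 4 pairs went in 1 direction for 10 genes, against 15.1% of all genes. Bmp3 entered through its mutant channel alone, a filter that favours a higher mutant value. Without it, 8 genes lay above and 1 below at an unadjusted p under 0.05, 5 did not overlap and 9 went in 1 direction. The median log2 ratio of the tested pathway genes was 0.04, against 0.00 over all genes, and 28 of them lay above 0, against 50.9% of all genes. Most values were small: 82.6% of the tested pathway genes lay within 0.25 of 0, against 93.8% of all genes. Their SD between pairs had a median of 0.20, against 0.16 over all genes.

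**Figure D1:**
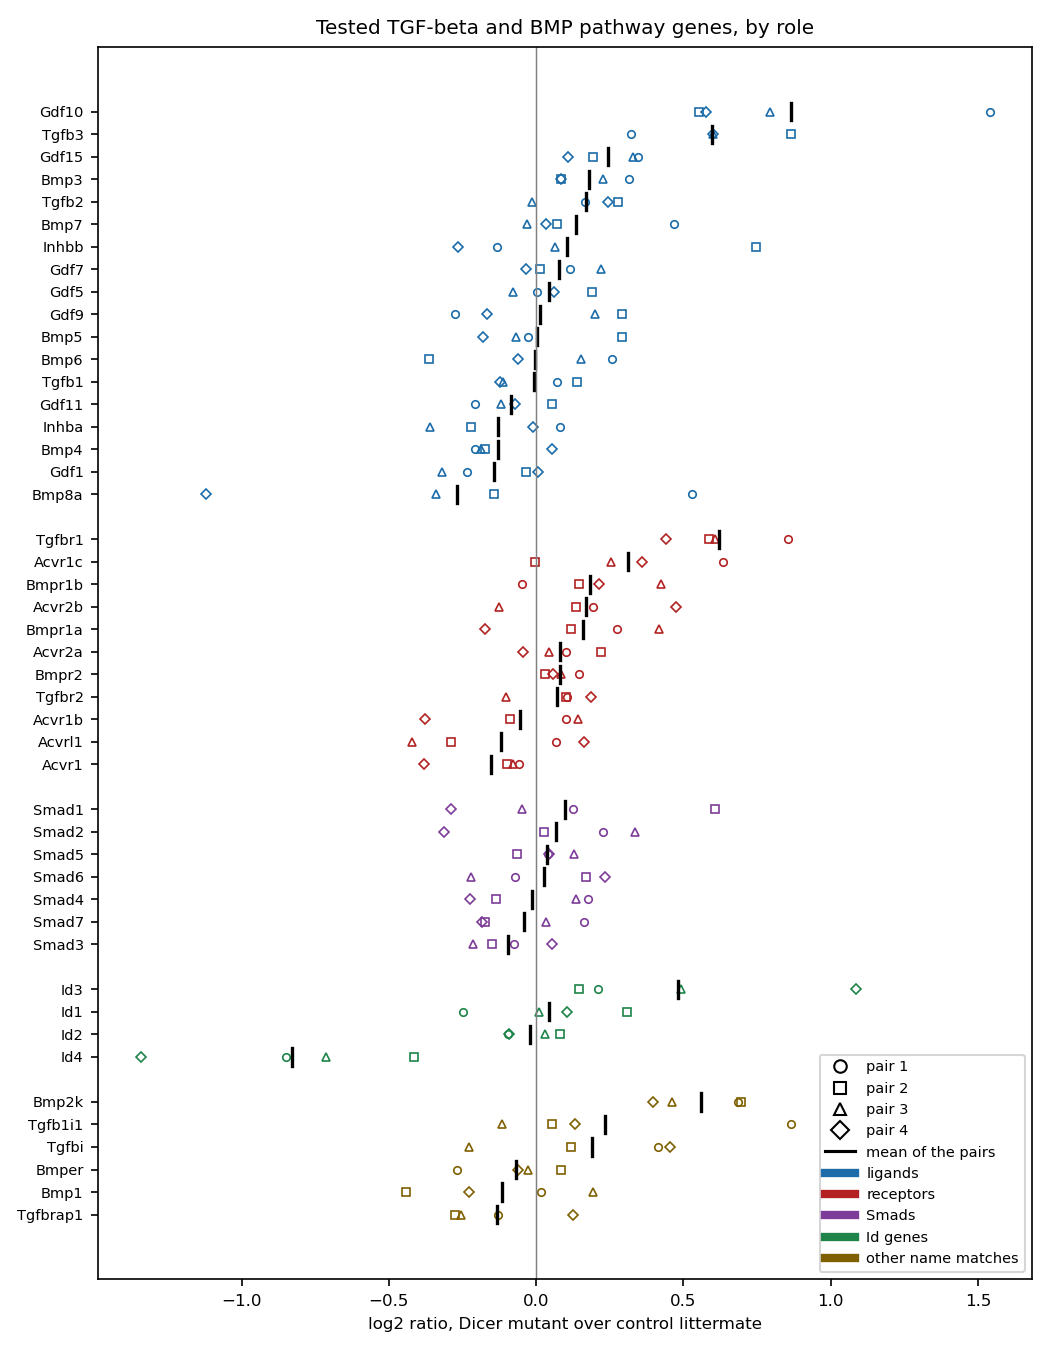
Log2 ratio of Dicer mutant over control littermate (x axis) for each of the 46 tested genes, grouped by role; each open symbol is 1 of 4 littermate pairs and the black bar is their mean. Gdf10, Tgfb3, Tgfbr1 and Bmp2k have all 4 pairs well above 0, Id4 has all 4 below 0, and the 7 Smads have means between -0.10 and 0.10.

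Among the 27 ligand genes, 18 were tested, and none was called by limma. An unadjusted p under 0.05 was found for 5 (27.8%, against 9.39% of all genes). Their median log2 ratio was 0.03 and their range was -0.27 to 0.87. Gdf10 (also called BMP3b), a ligand of the BMP group made by Bergmann glia, had the highest ratio. Its mutant levels in pairs 1 to 4 were 13593, 9407, 12166 and 10909, against 4679, 6411, 7018 and 7322 in the control littermates. Every mutant lay above every control, and pair 1 held both the highest mutant and the lowest control. The log2 ratios of the 4 pairs were 1.54, 0.55, 0.79 and 0.58, with a mean of 0.87 ± 0.46, a 95% interval of 0.55 to 1.18 and an adjusted p of 0.0632, so Gdf10 missed the threshold. Without pair 1 it was 0.68 (adjusted p = 0.0981), and without pair 3 it was 1.05 (adjusted p = 0.0265). With the channels fitted as separate samples, without the pairing by array, its adjusted p was 0.0212.

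Gdf10 is itself 1 of 8 markers listed for astroglia and Bergmann glia, and those markers did not move together. All 8 were tested, with a median of -0.45. Aldh1l1 and Gfap were called higher and Aqp4 and S100b were called lower. The summed level of the 8 was 132036 to 155826 in mutants and 167497 to 188783 in controls. This sum includes Gdf10 and leans on the brightest probes, and its part in the value of Gdf10 was not tested. In whole tissue, fewer cells of a type and less RNA per cell cannot be told apart.

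Tgfb3, the ligand TGF-beta 3, came closest to the threshold among ligands. Its levels were 2164, 2630.2, 2028 and 2531 in mutants, against 1731, 1443, 1338 and 1670 in control littermates. The lowest mutant lay above the highest control. The log2 ratios of the pairs were 0.32, 0.87, 0.60 and 0.60, with a mean of 0.60 ± 0.22, a 95% interval of 0.39 to 0.80 and an adjusted p of 0.0512. It passed in 9 of the 18 alternative settings, one of them the setting without pair 4, with 0.66 and an adjusted p of 0.0241. The other ligands of the TGF-beta group stood apart from it. Tgfb2 levels were 743, 727, 561 and 594 in mutants and 662, 599, 566 and 502 in controls, which overlapped, with a mean ratio of 0.17 ± 0.13 and an adjusted p of 0.494. Tgfb1, read by a probe with 10 spots per array, was at -0.01 ± 0.13 with a 95% interval of -0.19 to 0.18. Its levels were low, at 141, 142, 125 and 137 in mutants and 134, 129, 135 and 149 in controls. A ratio at such levels is drawn toward 0, so a change may be understated.

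The remaining ligands with an unadjusted p under 0.05 were Gdf15 and Bmp3. Gdf15, a divergent family member known as a stress-induced cytokine, had levels of 309, 352, 391 and 330 in mutants, against 243, 309, 311 and 306 in controls. The ranges overlapped, although each mutant exceeded its littermate. Its mean ratio was 0.24 ± 0.11 with an adjusted p of 0.209. Bmp3, a BMP group ligand that opposes BMP signalling in bone, was the only tested gene here whose control channel was not above background on every array: it was so on 1 of 4 arrays, and its mutant channel on all 4. Its levels were 108, 95.4, 97.6 and 96.1 in mutants and 86.7, 89.9, 83.4 and 90.5 in controls, close to background in both, with a mean ratio of 0.18 ± 0.11 and an adjusted p of 0.401. Because it passed the filter through the mutant channel alone, it could enter the test only on that side.

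The other BMP ligands had ratios of -0.13 ± 0.12 (Bmp4), 0.00 ± 0.20 (Bmp5), -0.00 ± 0.27 (Bmp6), 0.14 ± 0.23 (Bmp7) and -0.27 ± 0.68 (Bmp8a). Bmp8a had the widest spread of all tested members, with pairs at 0.53, -0.14, -0.34 and -1.12. The other GDF ligands had ratios of -0.14 ± 0.16 (Gdf1), 0.04 ± 0.11 (Gdf5), 0.08 ± 0.11 (Gdf7), 0.01 ± 0.28 (Gdf9) and -0.09 ± 0.11 (Gdf11). Gdf1 shares a transcript with the ceramide synthase gene Cers1 in mouse, so its signal may come from either coding region. The activin subunit genes gave -0.13 ± 0.20 (Inhba) and 0.10 ± 0.45 (Inhbb), where pair 2 of Inhbb stood at 0.75 and the other pairs between -0.27 and 0.07. None of these genes had an unadjusted p under 0.05.

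Of the 9 ligand genes that were not tested, Bmp2, Bmp8b, Bmp10, Bmp15, Gdf2, Gdf3 and Gdf6 were above background on none of the 4 arrays in either channel. Inhbc was above background on 1 array in mutants and on 0 in controls, and Inhbe on 1 array in each. The probe of Bmp2 has 10 spots per array and its levels were 75.9, 76.9, 74.9 and 78.3 in mutants and 80.03, 75.1, 78.3 and 77.9 in controls, so that even the repeated spots gave only a bound.

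**Figure D2:**
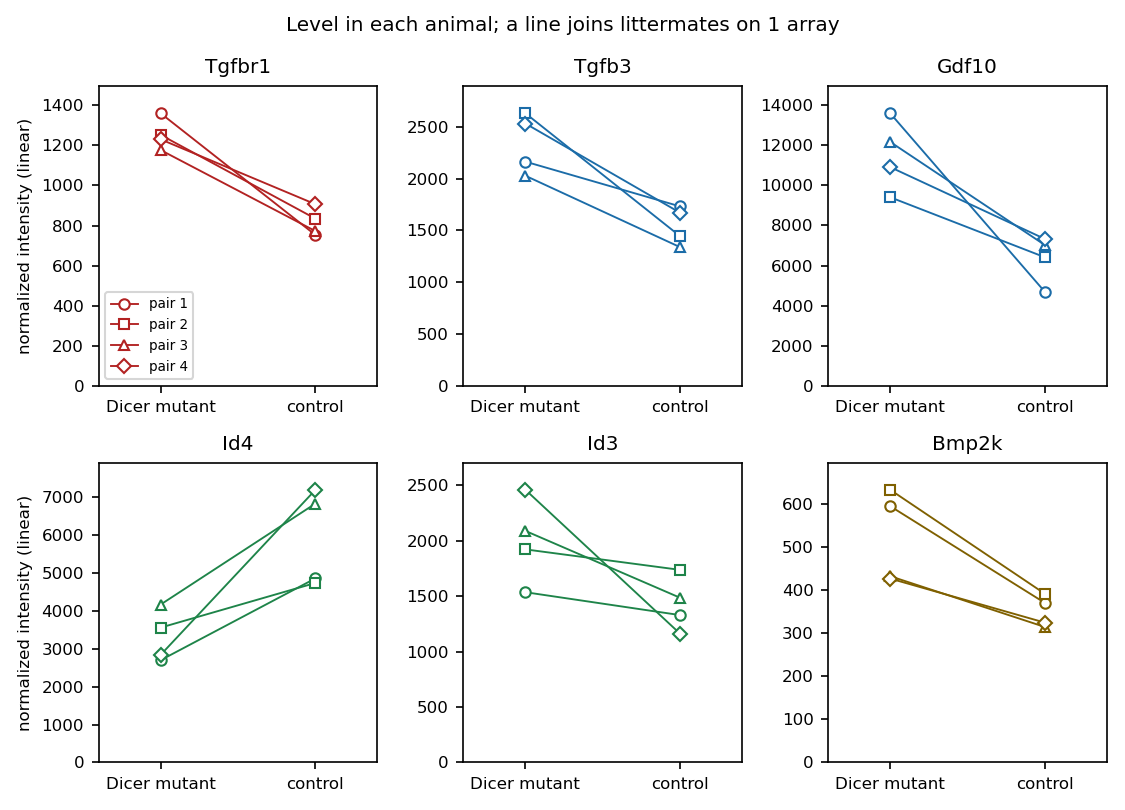
Normalized intensity on a linear scale from 0 (y axis) of 6 genes in each Dicer mutant (left) and its control littermate (right); a line joins the 2 animals of 1 array. The mutant levels lie above all control levels for Tgfbr1, Tgfb3, Gdf10 and Bmp2k, below all of them for Id4, and overlap them for Id3.

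Of 12 receptor genes, 11 were tested, 1 was called higher and 2 had an unadjusted p under 0.05 (18.2%, against 9.39% of all genes). The median over them was 0.08, against 0.00 over all genes. Tgfbr1 encodes the type I receptor that pairs with Tgfbr2 and phosphorylates Smad2 and Smad3. Its levels in pairs 1 to 4 were 1360.1, 1252, 1177 and 1230.0 in mutants, against 753, 834, 772 and 906 in control littermates. All mutants lay above all controls, and the range within either genotype was smaller than the gap between them. The pairs gave 0.85, 0.59, 0.61 and 0.44, a mean of 0.62 ± 0.17, which is 1.54-fold, with a 95% interval of 0.44 to 0.80 and an adjusted p of 0.0286. The ratio stayed between 0.55 and 0.68 in 18 alternative settings, and the call held in 13 of them. It was lost without pair 1 (0.56, adjusted p = 0.181), without pair 3 (0.68, adjusted p = 0.0921), with median centring in place of loess (adjusted p = 0.0836) and with the scanner's processed signals or the deposited value table (adjusted p = 0.0556 each).

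The value of Tgfbr1 rests on 1 of its 2 probes, at chromosome 4, 47427421 to 47427480 of mouse build mm9. The other probe was above background on 0 of 4 arrays in either channel and gave 0.06 ± 0.15 at levels of 75.9, 74.5, 62.2 and 73.95 in mutants and 68.2, 68.5, 69.98 and 67.6 in controls. It is shown because it is the probe that could not measure the gene. Its 60 bases are placed over 3659 bases of chromosome 4 (47419898 to 47423556, plus strand), a span that a single exon match does not give.
Tgfbr1, probe below background: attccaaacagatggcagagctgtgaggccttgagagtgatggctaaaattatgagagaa

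Acvr1c, a type I receptor for activin-related ligands (also called ALK7), had levels of 689, 519, 520 and 472 in mutants, against 444, 521, 435 and 368 in controls. The ranges overlapped, and pair 2 showed no gap. Its mean ratio was 0.31 ± 0.26 with an adjusted p of 0.382, and its further probes gave 0.19 ± 0.23 and 0.07 ± 0.13. The type I receptors named for BMP gave 0.16 ± 0.25 (Bmpr1a) and 0.18 ± 0.19 (Bmpr1b). The other type I receptors, set apart here by name and not by ligand, included Acvr1 at -0.15 ± 0.15. Acvr1b, which binds activin, gave -0.06 ± 0.24, and Acvrl1, found mainly in endothelium, gave -0.12 ± 0.28. The type II receptors, which bind ligand and phosphorylate the type I partner, lay close together at 0.07 ± 0.12 (Tgfbr2), 0.08 ± 0.05 (Bmpr2), 0.08 ± 0.11 (Acvr2a) and 0.17 ± 0.25 (Acvr2b). Tgfbr2, the partner of Tgfbr1, had a 95% interval of -0.09 to 0.24, and its levels were 1174, 1233, 1180 and 1049 in mutants and 1092, 1149.7, 1267 and 923 in controls. Tgfbr3, the co-receptor betaglycan, was above background on 2 of 4 arrays in each channel and was not tested.

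The Smads had the narrowest range of mean ratios among the role groups, from -0.10 to 0.10, with a median of 0.03. Of 8 genes, 7 were tested, limma called none, and 0 had an unadjusted p under 0.05, against 9.39% of all genes. The receptor-regulated Smads of the BMP branch gave 0.10 ± 0.38 (Smad1) and 0.04 ± 0.08 (Smad5). Those of the TGF-beta branch gave 0.07 ± 0.28 (Smad2) and -0.10 ± 0.12 (Smad3). Smad4, the shared partner, gave -0.01 ± 0.20. The inhibitory Smads, which are themselves induced by signalling in many cells and limit it, gave 0.03 ± 0.21 (Smad6) and -0.04 ± 0.17 (Smad7). Smad5 had the smallest SD between pairs of the tested Smads, with levels of 6754, 6757, 6687 and 6466 in mutants, against 6574, 7060.1, 6119 and 6278 in controls, and a 95% interval of -0.11 to 0.19. Smad1 had the largest SD, with an interval of -0.28 to 0.48, since its mutant in pair 2 stood at 8048 and its other mutants at 6237, 4607 and 4287, against controls of 5716, 5283, 4762 and 5239. Smad9 was above background on 1 of 4 arrays in each channel and was not tested.

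The 4 Id genes encode helix-loop-helix proteins that lack a DNA-binding region and hold bHLH transcription factors inactive. All 4 were tested and limma called none. An unadjusted p under 0.05 was found for 2 (50%, against 9.39% of all genes), with values on opposite sides of 0. Id4 levels were 2698, 3557, 4166 and 2838 in mutants, against 4858, 4736, 6832 and 7195 in control littermates. Every mutant lay below every control. The pairs gave -0.85, -0.41, -0.71 and -1.34, a mean of -0.83 ± 0.39, which is 0.563 times the control level, with a 95% interval of -1.22 to -0.44 and an adjusted p of 0.121. Without pair 2 it was -1.06 and without pair 4 it was -0.60. With all 4 pairs and no dye term its limma adjusted p was 0.0338, so its call varied with the setting. Its probe lies at mm9 chromosome 13, 48358668 to 48358727 (plus strand). A further probe at 48359180 to 48359239 lay below 0 in all 4 pairs (-0.22, -0.34, -0.28 and -0.78), with a mean of -0.41 ± 0.26. Both Id4 probes had their lowest ratio in pair 4.

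Id3 levels were 1535, 1921, 2088 and 2459 in mutants, against 1328, 1736, 1484 and 1159 in controls. The ranges overlapped, and pair 4 held both the highest mutant and the lowest control. The pairs gave 0.21, 0.15, 0.49 and 1.08, a mean of 0.48 ± 0.43, with a 95% interval of 0.08 to 0.89 and an adjusted p of 0.417. Without pair 2 it was 0.72 (adjusted p = 0.0212), and without pair 4 it was 0.25 (adjusted p = 0.237). Id1 gave 0.04 ± 0.23, and its further probe gave 0.05 ± 0.20. Id2 gave -0.02 ± 0.09 with a 95% interval of -0.18 to 0.14, and its further probe gave -0.21 ± 0.25. Id3 was read by a single probe, shown because the value rests on it alone. Its 60 bases are placed over 175 bases of mm9 chromosome 4 (135700075 to 135700249, plus strand).
Id3, probe: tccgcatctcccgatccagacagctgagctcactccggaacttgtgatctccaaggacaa

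The promoters of Id2, Id3 and Id4 are shown because promoters are where BMP signals are known to act on Id genes. Id1 is not shown. Each window holds 250 bases before and 50 bases after the gene's start, from RefSeq (mouse build GRCm38.p6, a later build than that of the probes), and 41 of the 57 genes had at least 1 window. The motif GGCGCC, which is known as a BMP-responsive Smad element of the Id1 promoter, was searched on both strands and is in capitals. It reads the same on both strands. The windows are at chr4:136143572-136143871 (Id3, plus strand), chr12:25096043-25096342 (Id2, minus strand) and chr13:48260866-48261165 (Id4, plus strand).
Id3: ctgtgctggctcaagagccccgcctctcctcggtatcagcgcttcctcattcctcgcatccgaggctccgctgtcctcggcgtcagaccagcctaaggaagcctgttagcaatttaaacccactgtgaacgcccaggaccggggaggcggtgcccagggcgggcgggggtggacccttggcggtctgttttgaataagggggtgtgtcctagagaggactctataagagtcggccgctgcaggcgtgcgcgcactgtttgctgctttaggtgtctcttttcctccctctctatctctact
Id2: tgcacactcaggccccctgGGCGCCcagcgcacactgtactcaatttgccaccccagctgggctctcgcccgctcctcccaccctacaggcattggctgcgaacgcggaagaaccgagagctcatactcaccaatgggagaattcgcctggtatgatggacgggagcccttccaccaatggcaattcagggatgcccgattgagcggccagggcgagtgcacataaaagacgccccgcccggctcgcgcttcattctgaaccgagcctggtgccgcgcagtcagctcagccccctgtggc
Id4: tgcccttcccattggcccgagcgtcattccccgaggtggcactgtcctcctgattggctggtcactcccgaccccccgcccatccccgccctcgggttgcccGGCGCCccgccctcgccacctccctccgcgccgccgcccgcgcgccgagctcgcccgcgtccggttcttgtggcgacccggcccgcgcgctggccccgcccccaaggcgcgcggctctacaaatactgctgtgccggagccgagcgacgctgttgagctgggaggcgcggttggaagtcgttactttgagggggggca

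The Id2 and Id4 windows held 1 match each and the Id3 window held none. Among the 50 windows of these 41 genes, 14 held GGCGCC (28%), against 11.9% of the 32851 windows of all genes. The palindromic Smad element GTCTAGAC, also searched on both strands, was in 1 of the 50 windows (2%), against 0.213% of all windows, and in none of the 3 Id windows. These counts describe letters in a window of 300 bases, and a match outside it would not be seen. The windows compared were not matched for base composition, and some genes have more than 1 window.

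The rule also took 6 genes whose names match and whose products are neither ligand, receptor, Smad nor Id protein. All 6 were tested and limma called none. Bmp2k, a kinase induced by BMP2 in bone cells, had levels of 595, 634, 433 and 427 in mutants, against 370.4, 392, 315 and 325 in controls. All mutants lay above all controls. The pairs gave 0.68, 0.69, 0.46 and 0.40, a mean of 0.56 ± 0.15, with an adjusted p of 0.0581, and without pair 4 it was 0.63 (adjusted p = 0.0232). Its other tested probe gave -0.01 ± 0.11, and the mean over both was 0.28 (adjusted p = 0.151). Bmp1, a metalloprotease that frees BMPs from chordin, gave -0.12 ± 0.28. Bmper, a secreted BMP-binding protein, gave -0.07 ± 0.15. Tgfbi, a matrix protein induced by TGF-beta, gave 0.19 ± 0.32. The adaptors gave 0.23 ± 0.43 (Tgfb1i1, also called Hic-5) and -0.13 ± 0.18 (Tgfbrap1).

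In pair 1, Gdf10 stood at 1.54, Tgfb1i1 at 0.86, Tgfbr1 at 0.85, Acvr1c at 0.63, Bmp8a at 0.53 and Bmp7 at 0.47. Each was the highest of its 4 pairs, as were the pair 1 values of Gdf15 (0.35) and Bmp3 (0.32). These genes were picked for their pair 1 values, and the role groups did not all peak there. Pair 1 had the highest median for Smads (0.13) and other name matches (0.22). Ligands had their highest median in pair 2 (0.11) and receptors in pair 4 (0.16). For Id genes pair 1 had the lowest median (-0.17). Tgfb3 and Bmp2k were highest in pair 2 (0.87 and 0.69). The 7 markers listed for meningeal fibroblasts, all tested, had a median of 0.86 in pair 1, against 0.22, 0.15 and 0.20 in pairs 2 to 4. None of the 7 was called, and 3 had an unadjusted p under 0.05, against 9.39% of all genes. Their summed level was 20955 to 28299.5 in mutants and 17348 to 23836 in controls, and its part in these genes' values was not tested.

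For 14 genes more than 1 probe was tested, and for 9 of them the probes had the same sign. The probes of 1 gene differed by a median of 0.13, and by at most 0.57 (Bmp2k). The dimmer tested Bmp2k probe was close to background, where ratios are drawn toward 0. Bmpr2 had 3 tested probes, at 0.08 ± 0.05, 0.04 ± 0.17 and -0.18 ± 0.38, the last with pair 4 at -0.75. The probes of a gene read the same animals and are not replicates.

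**Figure D3:**
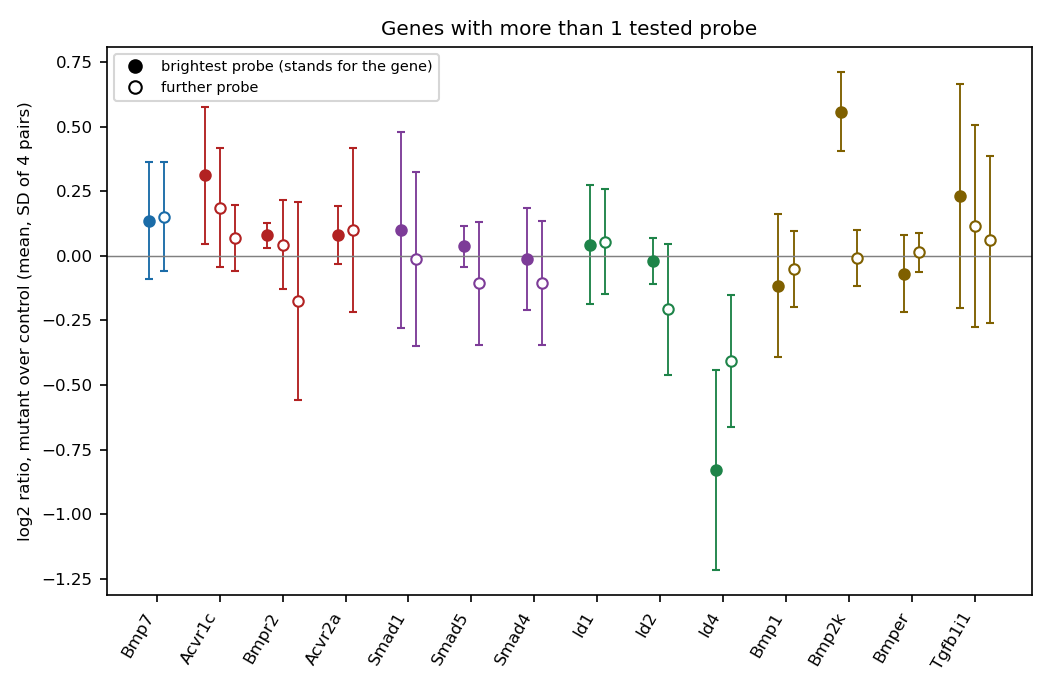
Mean log2 ratio of Dicer mutant over control littermate (y axis; bars are the SD of 4 pairs) for the 14 genes with more than 1 tested probe; filled points are the brightest probe, which stands for the gene, and open points the further probes. The probes of Id4 lie at -0.83 and -0.41, those of Bmp2k at 0.56 and -0.01, and those of Id1 and Bmp7 nearly coincide. The further Bmp2k probe was close to background.

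A wider set of 140 gene names of the pathway outside the name rule was listed in 4 groups, and 119 genes among them were tested. The 140 names include Ctgf and Cyr61, which are older names of the listed Ccn2 and Ccn1. Of these, 2 were called higher and 1 lower (2.52% called, against 1.03% of all genes), 18 had an unadjusted p under 0.05, and the median was 0.00. Over all genes 9.39% had an unadjusted p under 0.05, which is the background for each of the 4 groups. The called genes were Fstl1, Nbl1 and Gfap. Fstl1, a secreted follistatin-related protein that binds BMP ligands in cell assays, had levels of 3661, 3761, 2083 and 2523 in mutants, against 2039, 2006, 1449.5 and 1187 in control littermates. The groups did not overlap, and both genotypes were dimmer in pairs 3 and 4. Its mean ratio was 0.84 ± 0.24 with an adjusted p of 0.0184. Without the pairing by array the adjusted p of Fstl1 was 0.302, and without pair 1 it was 0.0793.

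Nbl1 (also called DAN), a secreted antagonist of BMP ligands, was called lower. Its levels were 6243, 5908, 5615 and 6043 in mutants, against 9374, 8194, 8813 and 8977 in controls. The groups did not overlap and the pairs lay close together, from -0.65 to -0.47. Its mean ratio was -0.57 ± 0.07 with an adjusted p of 0.0226. The call of Nbl1 was lost without pair 1 (adjusted p = 0.150) and without pair 3 (adjusted p = 0.156). Gfap, an astroglial filament gene listed here as a transcriptional target, had levels of 5917, 4138, 5683 and 7829 in mutants, against 1524, 1839.9, 2329 and 2795 in controls. It was called higher at 1.47 ± 0.35 (adjusted p = 0.0137), and also in the 18 alternative settings. Gfap is on the list of astroglial markers too, and its promoter drives the Cre transgene.

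Among the 41 tested extracellular modulators and co-receptors, 11 had an unadjusted p under 0.05, against 9.39% of all genes. Those named by rank that were not called were Amhr2, the type II receptor of anti-Müllerian hormone, at -0.45 ± 0.08 (adjusted p = 0.0572), Bambi, a receptor-like protein without a kinase that blocks signalling, at -0.54 ± 0.20 (adjusted p = 0.102), Twsg1, a BMP-binding protein, at 0.40 ± 0.25 (adjusted p = 0.144) and Itgav, an integrin subunit that takes part in freeing latent TGF-beta, at 0.58 ± 0.33 (adjusted p = 0.209). Mutant and control levels of these 4 genes did not overlap, against 4.01% of all genes. They were picked for small p values, which favours such a gap. The levels of Htra3, Vasn and Ltbp3, also on this list, did not overlap either. Without pair 2, Bambi passed at -0.63 (adjusted p = 0.0394), and without pair 4, Itgav passed at 0.77 (adjusted p = 0.0127) and Twsg1 at 0.48 (adjusted p = 0.04996). Bambi levels were 506, 547, 536 and 548 in mutants, against 665, 689, 891 and 884 in controls, so its mutants were alike and its controls were not.

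None of the 33 tested intracellular regulators was called by limma, and 3 had an unadjusted p under 0.05: Tgif2, a Smad corepressor, at 0.35 ± 0.25, Ctdsp1, a phosphatase that acts on Smads, at -0.22 ± 0.12, and Tab2, an adaptor of the TAK1 kinase, at 0.19 ± 0.06. Without pair 4, Tgif2 passed at 0.48 (adjusted p = 0.0426). Of the 27 tested transcriptional targets, Gfap alone was called and alone had an unadjusted p under 0.05. The median of the targets was 0.02. None of the 18 tested bHLH partners and neighbours of Id proteins was called by limma, and 3 had an unadjusted p under 0.05: Rb1, which binds Id2, at 0.25 ± 0.11, and the oligodendrocyte factors Olig1 at -0.23 ± 0.18 and Olig2 at -0.21 ± 0.15. The 5 oligodendrocyte markers had a median of -0.23, none of them called, with summed levels of 180108 to 231120 in mutants and 212810 to 267616 in controls, and the part of this in the values of Olig1 and Olig2 was not tested.

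**Figure D4:**
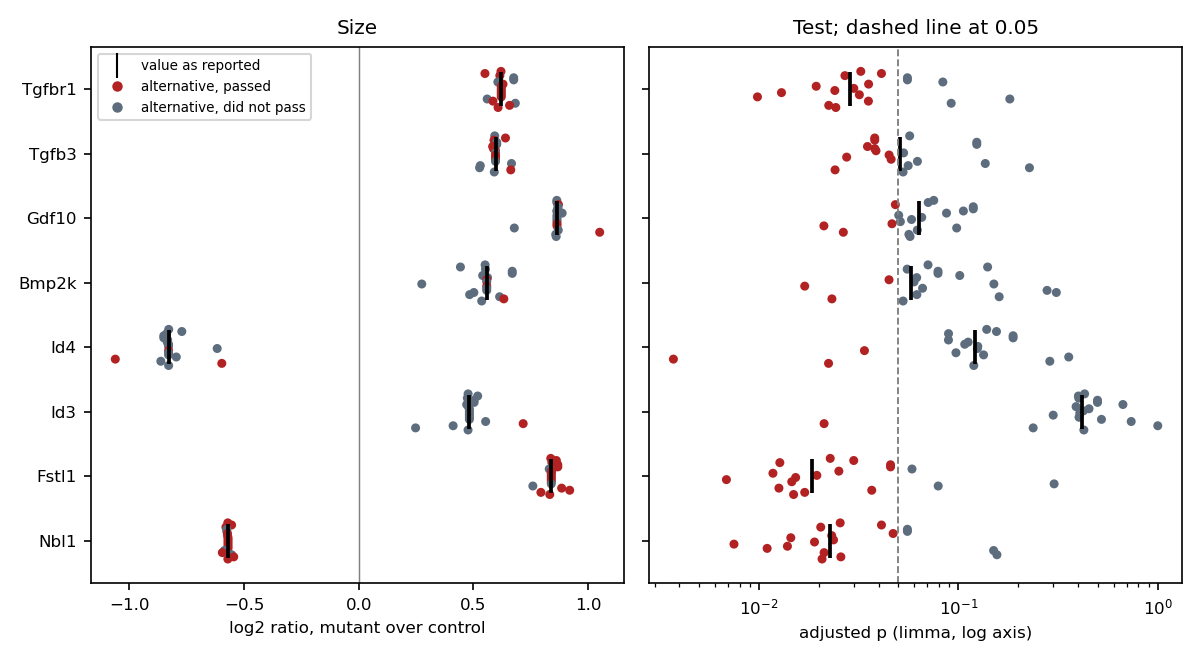
Log2 ratio of Dicer mutant over control littermate (left) and its limma adjusted p on a log axis (right) for 8 genes, as reported (black bar) and in 18 alternative settings (points; red where the adjusted p is under 0.05, the dashed line). The ratios keep their side of 0 in every setting, while the adjusted p of each of the 8 genes falls on both sides of the line.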

How the data were processed

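Cerebellum RNA of 4 Dicer mutant and control littermate pairs was read on 4 two-colour arrays with dyes swapped. The deposited files hold linear spot and background intensities from Agilent Feature Extraction 10.5.1.1, per the file headers. The deposited value table holds log10 ratios made by the authors' scanner software, as mutant over control; it matched the array files' log10 ratios within 4.84e-06 once signs were turned.

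Intensities were corrected in limma 3.58.1 (R 4.3.3) by normexp with offset 50, with 143 to 248 flagged spots per array set missing first, and normalized by loess within arrays. Spots of a probe were averaged and the brightest tested probe stood for a gene. The fit had a dye term and a genotype term (2 residual and 3.37 prior degrees of freedom), with Benjamini-Hochberg adjustment over 18024 genes. No spot was saturated. Levels were scaled between arrays (Aquantile). Each ratio is paired by array. Gene symbols were looked up by transcript accession (24844 probes) or kept as the array gives them (16330). The fit was tested on simulated data.

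The named genes were every tested member; members with an unadjusted p under 0.05 are given by animal; of the wider lists, every called gene and up to 3 per list and direction by unadjusted p. The members, lists and tests were chosen with earlier results of these data known. Alternatives varied background, signal, normalization, filter, probe rule, dye term, variance model, pairing and replicates.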

Additional observations from a re-analysis of the deposited data

Results flagged for a closer look

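For 2 of 59 genes looked at, the ratio of 1 pair stood apart from the other 3 by more than Dixon's 95% critical value, which chance passes in about 1 of 20 groups of this size. Bmp4 had a log2 ratio of 0.0544 in pair 4, while its other pairs lay between -0.206 and -0.175. Acvr1 had -0.380 in pair 4, while its other pairs lay between -0.0978 and -0.0575.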

How the results depend on the processing

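Of 1061 values of single genes over 18 alternatives, 29 passed only under the alternative and 12 passed only as reported. Among genes with an unadjusted p of 0.05 or more as reported, another 4 values moved by more than the SD between pairs. Genes under 0.05 were checked for call and sign alone. Some of their values moved further than the SD, such as Bmp2k, from 0.56 to 0.28 with the mean over probes (SD 0.15). That mean takes in a Bmp2k probe close to background. The sign changed in 27 values of 17 genes, whose reported ratios were at most 0.23 from 0 and none of which had an unadjusted p under 0.05. Against 1 member called higher, the count was 0 with processed signals and with the value table, 2 with flags after the background fit, with scaling between arrays, with the mean over probes and with no replicate block, 3 with median spot signal, no filter on dim probes, no dye term and trended robust variances, and 0 to 3 with 1 pair left out. With no replicate block, the calls that changed among the named genes were those of Gdf10 and Fstl1. The 1 member was Gdf10 in place of Tgfbr1 without pair 3, and Tgfb3 (adjusted p = 0.0350) in place of Tgfbr1 with median centring. Against 0 members called lower, it was 1 with no dye term (Id4) and 0 to 1 with 1 pair left out. Of the wider lists, 2 were higher as reported, 1 with median centring and with no replicate block, and 1 to 6 with 1 pair left out. Against 1 lower, there were 0 with processed signals and with the value table, 2 with no background subtraction, no filter and the mean over probes, 3 with no dye term, and 0 to 2 with 1 pair left out. The ligand median was -0.0302 to 0.106 with 1 pair left out, and the receptor median was 0.139 with processed signals and with the value table. The cause of these changes was not tested. The flags of the spot alone were an alternative chosen after seeing the data, and it moved no count. With 4 arrays, the median 95% interval of a tested pathway gene reached 0.19 to either side.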
